A study of Mus musculus with 6 samples.

Results

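The genes described here are Trem2, its adaptors Tyrobp and Hcst, and 7 genes that lipid-laden macrophages express, namely Cd9, Spp1, Lgals3, Fabp5, Cd63, Plin2 and Apoe. They were taken by gene symbol from the table of raw counts, where all 10 were found among 54532 gene identifiers, and all 10 passed the filter on low counts. The 6 RNA-seq libraries come from epididymal white adipose tissue, a visceral fat pad of male mice, of animals on a high-fat diet for 16 weeks. The 3 knockout libraries are from mice with a floxed PD-1 gene (PD-1fl/fl) and a Cre recombinase driven by Lyz2, a gene of macrophages, neutrophils and other myeloid cells. The 3 control libraries are from littermates with the floxed gene (PD-1fl/fl) and no Cre, on the same diet. Pdcd1 is the gene of PD-1, which restrains immune cells. Whole tissue was sequenced, so more cells of a type and more RNA per cell cannot be told apart in any value below. Each library's title carries its own number, but the labels do not say that it stands for a mouse. The p-values then cover the spread between the samples at hand. That spread went beyond counting noise, as given below, and its biological and technical parts cannot be told apart.

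TREM2 is a lipid-binding receptor on the surface of macrophages. It has almost no signalling tail of its own and passes its signal through DAP12, the adaptor encoded by Tyrobp, to the kinase SYK, and also pairs with DAP10, the adaptor encoded by Hcst. In obese fat, macrophages that gather around dying adipocytes take up their lipid and switch on a set of genes that depends in part on TREM2. These cells are known as lipid-associated macrophages.

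Library totals ranged from 20108185 to 27225533 counts. Control replicate 2 stands apart from the others, with a mean of 13.01 log2(CPM + 1) over 16 hepatocyte genes against 1.04 to 8.44 in the 5 other libraries. The mean of this library over 14 adipocyte genes was 6.26, against 9.50 to 10.89 elsewhere. CPM stands for counts scaled to a common library size with TMM factors. The factor of control replicate 2 was 0.559, against 0.982 to 1.25 in the other libraries. Its CPM values therefore stand higher than under scaling by total counts. Control replicate 3 (8.44) and knockout replicate 2 (5.81) had the next highest hepatocyte means, so leaving out control replicate 2 does not remove every liver transcript. The fold changes of the 10 genes are therefore given with all 6 libraries and without control replicate 2. Pdcd1 had 19, 19 and 5 counts in the knockouts, against 13, 0 and 0 in the controls, and it is also expressed by T cells, outside the reach of the Cre, so it does not check the labels. Macrophage markers differed between the libraries too. The mean over 12 of them, none of which is among the 10 genes, was 7.51, 7.86 and 5.90 log2(CPM + 1) for knockout replicates 1 to 3, against 5.52, 4.64 and 5.44 for control replicates 1 to 3. None of the 12 markers was at 0 in any library. Csf1r and Cd68 among them also belong to pathway lists used below.

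The sequences before the start sites of 3 of the genes are shown because these genes span the range of the data: Trem2 had the highest fold change with all 6 libraries, Spp1 the widest range between libraries and Hcst the narrowest. Each run is the 250 bases before the RefSeq start on build GRCm38.p6, the same assembly as mm10, written 5′ to 3′ on the strand of the gene. Trem2 lies at chr17:48346151-48346400 on the plus strand, Spp1 at chr5:104434861-104435110 on the plus strand and Hcst at chr7:30419855-30420104 on the minus strand. Capitals mark matches on either strand to GAGGAA, a core bound by the myeloid factor PU.1, and to TGANTCA, an AP-1 site. No match to CACGTG, the E-box bound by MITF and TFE factors, was found in them.
Trem2: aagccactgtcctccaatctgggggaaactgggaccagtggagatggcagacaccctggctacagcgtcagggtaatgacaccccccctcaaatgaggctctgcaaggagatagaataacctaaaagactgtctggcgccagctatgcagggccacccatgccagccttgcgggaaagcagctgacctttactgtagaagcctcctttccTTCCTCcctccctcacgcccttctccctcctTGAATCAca
Spp1: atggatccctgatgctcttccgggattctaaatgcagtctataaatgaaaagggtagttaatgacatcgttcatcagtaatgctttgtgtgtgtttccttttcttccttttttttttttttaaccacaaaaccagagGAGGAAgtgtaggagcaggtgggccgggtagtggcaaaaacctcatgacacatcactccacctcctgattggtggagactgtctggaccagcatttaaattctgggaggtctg
Hcst: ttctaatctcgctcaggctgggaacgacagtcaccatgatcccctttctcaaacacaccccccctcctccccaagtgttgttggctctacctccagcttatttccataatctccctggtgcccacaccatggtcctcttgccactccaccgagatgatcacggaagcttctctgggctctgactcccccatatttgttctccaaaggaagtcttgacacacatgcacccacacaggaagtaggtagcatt

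Trem2 held both motifs within its last 40 bases, with TTCCTC at 40 to 35 and TGAATCA at 9 to 3 bases before the start. Spp1 held GAGGAA at 113 to 108 bases before the start. Hcst held none of the 3 in this window. Windows were matched for 8 of the 10 genes, with 11 start sites in all, and Tyrobp and Fabp5 had no entry. GAGGAA was found in 5 of these 11 windows (of Trem2, Spp1, Cd63 and Apoe), against 23.3% of 32851 windows of the same length. TGANTCA was found in 1 of 11, against 6.75% of windows, and CACGTG in 0 of 11, against 6.02%. A match is a run of letters and does not show binding.

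Trem2, the receptor, was above all controls in all 3 knockout libraries. Knockout replicates 1 to 3 had 236, 322 and 57.6 CPM, against 21.2, 3.31 and 11.3 CPM for control replicates 1 to 3. Knockout replicates 1 and 2 were the highest, and the lowest knockout stood 2.72-fold above the highest control. Knockout over control, the log2 fold change was 4.10 ± 0.94 (SE, n = 3 per group), and 3.68 ± 0.85 without control replicate 2. The adjusted p of edgeR's quasi-likelihood test over all genes was 0.560 and 0.540, so the difference did not pass. DESeq2, run as an alternative, called Trem2 in both settings (adjusted p 0.00115 and 0.000179). Trem2 is on chromosome 17 (48346401 to 48354147, plus strand, GENCODE vM21 on mm10).

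Tyrobp, whose protein carries the activating motif that recruits SYK, followed the same order with smaller differences. It had 141, 215 and 58.6 CPM in the knockouts, against 48.8, 14.04 and 20.3 CPM in the controls. The groups did not overlap, but knockout replicate 3 was only 1.20-fold above control replicate 1. On the log2 scale the fold change was 2.32 ± 0.68 (SE, n = 3; edgeR adjusted p 0.560), and 2.02 ± 0.69 without control replicate 2 (0.540). DESeq2 called it with all 6 libraries (adjusted p 0.0393) and not without control replicate 2 (0.0565).

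Hcst, the adaptor that recruits phosphoinositide 3-kinase and is also used by NK and T cells, was low everywhere. It had 117, 143 and 51 counts in the knockouts, against 105, 16 and 42 in the controls, or 3.82, 5.02 and 1.98 CPM against 3.93, 1.43 and 1.54 CPM. The groups overlapped, since control replicate 1 was above knockout replicates 1 and 3. Its log2 fold change was 0.64 ± 0.64 (SE, n = 3; edgeR adjusted p 0.802), and 0.41 ± 0.64 without control replicate 2 (0.865). It was 1.28 without control replicate 1, 0.34 without knockout replicate 2 and −0.11 without controls 2 and 3 (0.940).

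Both adaptor genes lie on chromosome 7, tail to tail. Tyrobp spans 30413760 to 30417585 on the plus strand and Hcst 30417712 to 30419854 on the minus strand, with 126 bases between them. The strand setting of the counting is not given in the sources used here. Reads that run past the end of Tyrobp into Hcst could not then be told from reads of Hcst. Any such share was not tested.

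Per length, Tyrobp stood above both its partners in every library. The deposited FPKM values of Tyrobp were 188, 296 and 76.7 in the knockouts, against 63.5, 19.7 and 27.3 in the controls. The ratio of Trem2 to Tyrobp FPKM was 0.226, 0.202 and 0.133 in the knockouts, against 0.0586, 0.0318 and 0.0752 in the controls. Each knockout thus had more Trem2 per Tyrobp transcript than each control. The ratio of Hcst to Tyrobp went the other way, at 0.0251, 0.0216 and 0.0312 in the knockouts, against 0.0745, 0.0941 and 0.0700 in the controls. These ratios were chosen after the values were seen and are given without a test. The gene lengths behind the deposited FPKM were proportional to the summed exon lengths in GENCODE vM21, with the same factor for all 10 genes. For Trem2 that length is 4946 bases, although its annotated transcripts range from 526 to 4784 bases. The level of Trem2 against other genes depends on that length, and the contrast between libraries does not.

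Cd9 and Cd63 encode tetraspanins, membrane-organising proteins of the cell surface and of endosomes and lysosomes. Cd9 had 178, 196 and 72.6 CPM in the knockouts, against 40.6, 44.2 and 52.5 CPM in the controls. All 3 controls lay close together after TMM scaling, from raw counts of 1083, 494 and 1433, and all 3 knockouts were above them. The log2 fold change of Cd9 was 1.70 ± 0.44 (SE, n = 3; edgeR adjusted p 0.560), and it was 1.70 ± 0.50 without control replicate 2 (0.540). DESeq2 called Cd9 in both settings (adjusted p 0.0330 and 0.0336). The gene lies on chromosome 6 (125460266 to 125494791, minus strand), and the antisense genes Gm28809 and Gm26728 that overlap it had at most 6 counts in any library.

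Cd63 had 381, 482 and 284 CPM in the knockouts, against 276, 16.2 and 168 CPM in the controls. The groups did not overlap, but the lowest knockout was only 1.03-fold above the highest control. In edgeR the log2 fold change was 1.32 ± 0.92 (SE, n = 3; edgeR adjusted p 0.692), and 0.80 ± 0.39 without control replicate 2 (0.586). It was 2.05 without control replicate 1. Cd63 lies on chromosome 10 (128900989 to 128912822), as does Lyz2, the locus of the Cre, at a distance of 11.6 Mb. A processed copy named Cd63-ps had 20 to 1380 counts per library, so some reads of Cd63 could have been counted there.

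Spp1, Lgals3 and Apoe encode secreted proteins. Spp1 encodes osteopontin, a matrix protein and cytokine that inflamed macrophages release and that bile duct cells of the liver also make. It had 71.6, 372 and 13.001 CPM in the knockouts, against 6.22, 103 and 2.897 CPM in the controls. Control replicate 2, the library with the liver profile, was higher than knockout replicates 1 and 3, and the other controls were below all 3 knockouts. The log2 fold change was 2.03 ± 1.65 (SE, n = 3; edgeR adjusted p 0.742) with all 6 libraries. Without control replicate 2 it was 5.10 ± 1.64 (edgeR adjusted p 0.540, DESeq2 0.0306), and without knockout replicate 2 it was 0.17. Spp1 ranged 128-fold between the highest and the lowest library, the widest range of the 10 genes. The gene lies on chromosome 5 (104435118 to 104441050, plus strand).

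Lgals3 encodes galectin-3, a sugar-binding protein abundant in macrophages that have taken up lipid. It had 1061, 1846 and 504 CPM in the knockouts, against 192, 17.1 and 156 CPM in the controls. Each knockout was at least 2.62-fold above the highest control, and control replicate 2 had 3.39% of the median of the 5 other libraries. On the log2 scale the fold change was 3.22 ± 1.02 (SE, n = 3; edgeR adjusted p 0.560), and 2.73 ± 0.65 without control replicate 2 (0.540). DESeq2 called Lgals3 in both settings (adjusted p 0.0217 and 0.000607). Lgals3 lies on chromosome 14 (47367751 to 47386160, plus strand).

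Apoe encodes apolipoprotein E, a lipid carrier and TREM2 ligand made above all by hepatocytes, and by macrophages and adipocytes as well. It had 3189, 4929 and 5931 CPM in the knockouts, against 5639, 30413 and 4729 CPM in the controls. Control replicate 2 was 6.17 times the median of the 5 other libraries, which overlapped. Its log2 fold change was −1.54 ± 0.97 (SE, n = 3; edgeR adjusted p 0.661), and −0.14 ± 0.43 without control replicate 2 (0.940). Apoe had the highest FPKM of the 10 genes in every library, from 1329 to 13319. It lies on chromosome 7 (19696109 to 19699188, minus strand).

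Fabp5 and Plin2 act on lipid inside the cell. Fabp5 encodes a fatty acid carrier of macrophages, endothelium and adipocytes. It had 247, 255 and 255 CPM in the knockouts, against 331, 59.9 and 158 CPM in the controls. The knockouts were nearly equal (252 ± 4.73 CPM, SD, n = 3) and lay inside the range of the controls. In edgeR the log2 fold change was 0.46 ± 0.62 (SE, edgeR adjusted p 0.867), and 0.05 ± 0.37 without control replicate 2 (0.973). It was 1.21 without control replicate 1 and −0.38 without controls 2 and 3 (0.517). Fabp5 lies on chromosome 3 (10012548 to 10016607, plus strand).

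Plin2 encodes perilipin 2, the lipid droplet coat protein of cells other than mature fat cells, and it is also abundant in fatty liver. It had 1376, 1579 and 653 CPM in the knockouts, against 586, 1192 and 438 CPM in the controls. With TMM scaling, control replicate 2 lay between the knockouts, and the other controls were below all 3. The log2 fold change was 0.70 ± 0.62 (SE, n = 3; edgeR adjusted p 0.770), and 1.25 ± 0.49 without control replicate 2 (0.548). It was 0.44 without control replicate 3, and 1.32 with all 6 libraries scaled by total counts in place of TMM. Plin2 lies on chromosome 4 (86648386 to 86670060, minus strand).

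**Figure D1:**
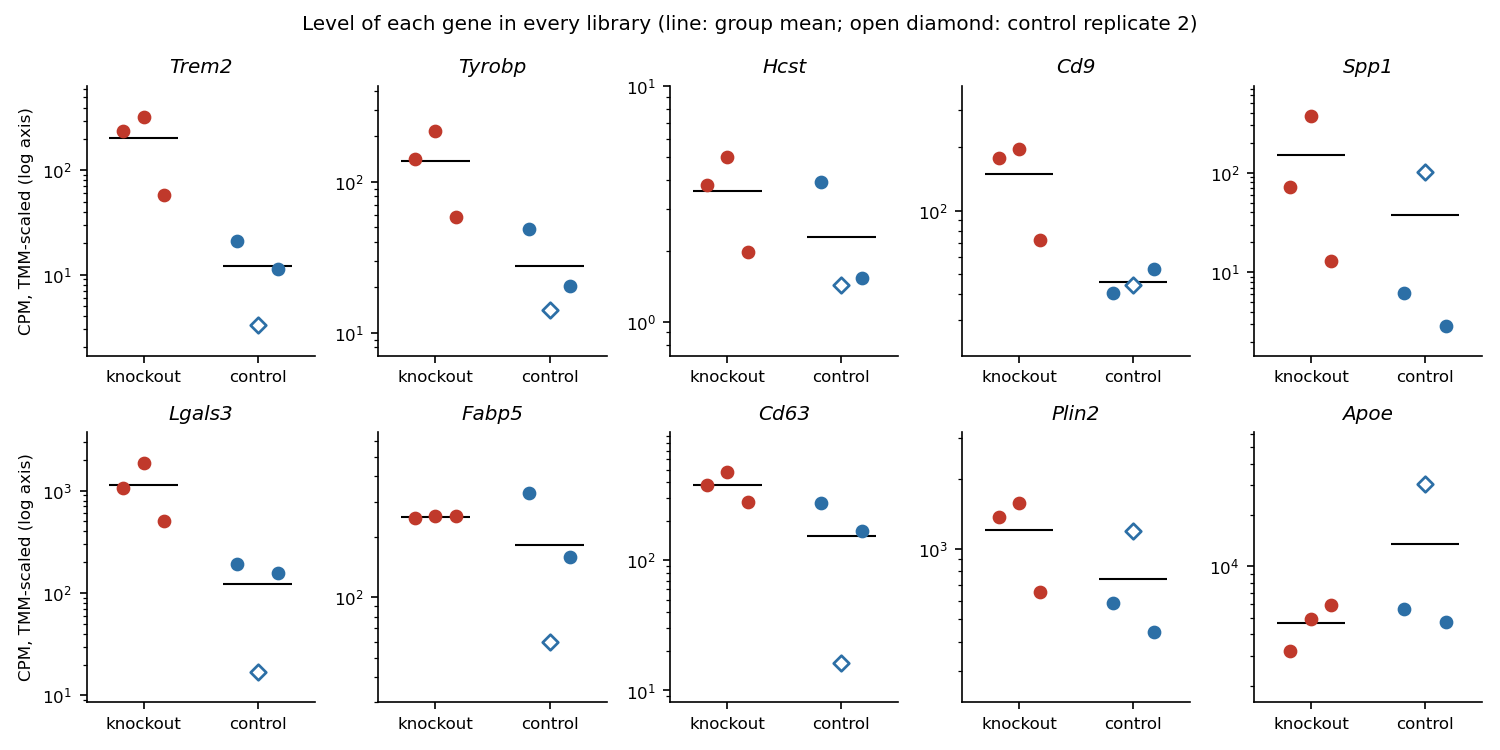
TMM-scaled CPM on a log axis for each gene in the 3 knockout (red) and 3 control (blue) libraries, with group means as lines and control replicate 2 as an open diamond. Trem2, Tyrobp, Cd9, Lgals3 and Cd63 do not overlap between groups, and control replicate 2 is the highest control for Apoe, Spp1 and Plin2.

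Across the set, 5 of 10 genes (Trem2, Tyrobp, Cd9, Lgals3 and Cd63) had each knockout above each control, against 9.54% of 15928 genes tested. Without control replicate 2 the count was 7 of 10, with Spp1 and Plin2 added, against 13.4% of 16729 genes. None of the 10 had each knockout below each control, against 5.61% of all genes tested, or 12.3% when control replicate 2 was left out. EdgeR called 0 of the 10 genes and 0 of 15928 genes in all (0.0%), with 1377 genes and 4 of the set (Trem2, Cd9, Tyrobp and Lgals3) at an unadjusted p under 0.05. Limma-voom also called 0. DESeq2 called 4 of the 10 genes as higher, against 1.77% of 15580 genes, and 0 as lower, against 1.6% (3.37% in both directions). Without control replicate 2 it called 4 of 10 as higher, against 2.12% of 16070 genes, and 0 as lower, against 0.691% (2.81% in both directions). The median log2 fold change of the 10 genes was 1.51, with 9 of 10 above 0, and that of all genes tested was −0.03, with 48.0% above 0. When counts were simulated from the means and dispersions of all 6 libraries, edgeR recovered few changed genes even at the largest fold tried, and unchanged genes made up far more of the DESeq2 calls than the threshold allows. The simulation drew each gene on its own and held no library that stands apart as control replicate 2 does. Its rates may therefore not hold for these data. The tools disagreed, and neither the absence of edgeR calls nor a DESeq2 call alone settles whether a gene differed. Since the genes were picked with results of these data known, these counts describe the set and do not test it.

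**Figure D2:**
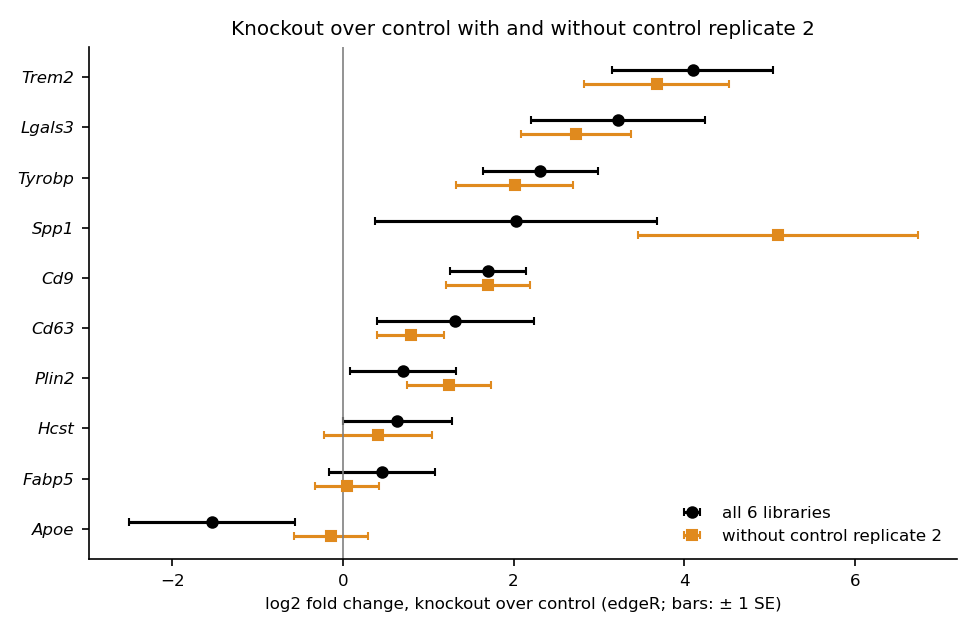
EdgeR log2 fold changes, knockout over control, with bars of ± 1 SE, for all 6 libraries (black circles) and without control replicate 2 (orange squares). Spp1 moved from 2.03 to 5.10 and Apoe from −1.54 to −0.14 when that library was left out, while Cd9 stayed at 1.70.

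The genes with the largest differences varied within the knockout group as well. Mean log2(CPM + 1) over knockout replicates 1 and 2 exceeded that of knockout replicate 3 by 2.24 for Trem2, 1.55 for Tyrobp, 1.47 for Lgals3 and 1.35 for Cd9, and by 3.55 for Spp1. It differed by −0.03 for Fabp5 and −0.58 for Apoe. Knockout replicate 3 and control replicate 3 are the libraries whose titles carry numbers that start with 90. Between these libraries alone, which gives no test, the log2 difference was 2.25 for Trem2, 1.48 for Tyrobp, 1.68 for Lgals3, 1.85 for Spp1 and 0.46 for Cd9. Between the mean of knockout replicates 1 and 2 and control replicate 1 it was 3.64 for Trem2, 1.81 for Tyrobp, 2.86 for Lgals3, 4.51 for Spp1 and 2.18 for Cd9. All 5 genes were higher in the knockout on either side. Control replicate 2 was in neither comparison, and without it each knockout was above each control for all 5 genes. Both differences thus had to be above 0, and only their sizes add to the values above.

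The next comparison asked whether a gene differed by more or by less than the macrophage markers of the same library. The mean log2(CPM + 1) of the 12 markers was subtracted from that of the gene, and libraries were compared with an exact two-sided permutation test, which cannot go below 0.1 with 3 against 3, in 10 tests. Trem2 stood at 0.37, 0.48 and −0.02 in the knockouts, against −1.05, −2.53 and −1.81 in the controls. The difference of 2.07 was larger than the spread in either group (SD 0.26 and 0.74, exact p 0.1), and it was 1.71 without control replicate 2. The groups did not overlap, and the p is the smallest that the design allows.

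Lgals3 also stood higher against the markers, at 2.54, 2.99 and 3.08 in the knockouts, against 2.07, −0.46 and 1.86 in the controls (difference 1.72, exact p 0.1; 0.91 without control replicate 2). Tyrobp had −0.37, −0.10 and 0.00 in the knockouts, against 0.11, −0.73 and −1.02 in the controls, and these overlapped (difference 0.39, exact p 0.4; 0.30 without control replicate 2). Against Ptprc, the CD45 gene of all leukocytes, in place of the markers, the Tyrobp difference was −0.01. The Lgals3 difference against Ptprc was 1.32, and its groups then overlapped (exact p 0.3). Trem2 kept its groups apart against Ptprc (difference 1.68, exact p 0.1). Cd9 overlapped too (difference −0.32, exact p 0.4; −0.07 without control replicate 2).

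Against the markers, all 3 knockouts stood below all controls for Hcst and Apoe. The subtracted marker mean itself did not overlap between groups, with a lowest knockout at 5.90 and a highest control at 5.52. A gene at a constant level in all 6 libraries would thus give the same order and the same exact p. The order therefore shows only that Hcst and Apoe did not rise as much as the markers, and no fall can be read from it. How many of all genes show this order was not tested. Hcst had −5.24, −5.27 and −4.32 in the knockouts, against −3.22, −3.36 and −4.09 in the controls (difference −1.39, exact p 0.1; −1.29 without control replicate 2). Apoe had 4.12, 4.41 and 6.64 in the knockouts, against 6.94, 10.25 and 6.77 in the controls (difference −2.93, exact p 0.1; −1.80 without control replicate 2). Against the mean of Adgre1 and Csf1r the Apoe groups overlapped (−3.30, exact p 0.2). Fabp5 (−1.11, exact p 0.3), Plin2 (−1.15, 0.2), Spp1 (0.45, 0.8) and Cd63 (0.12, 0.9) overlapped between groups. Without control replicate 2 these differences were −1.47 for Fabp5, −0.46 for Plin2, 2.16 for Spp1 and −0.82 for Cd63.

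**Figure D3:**
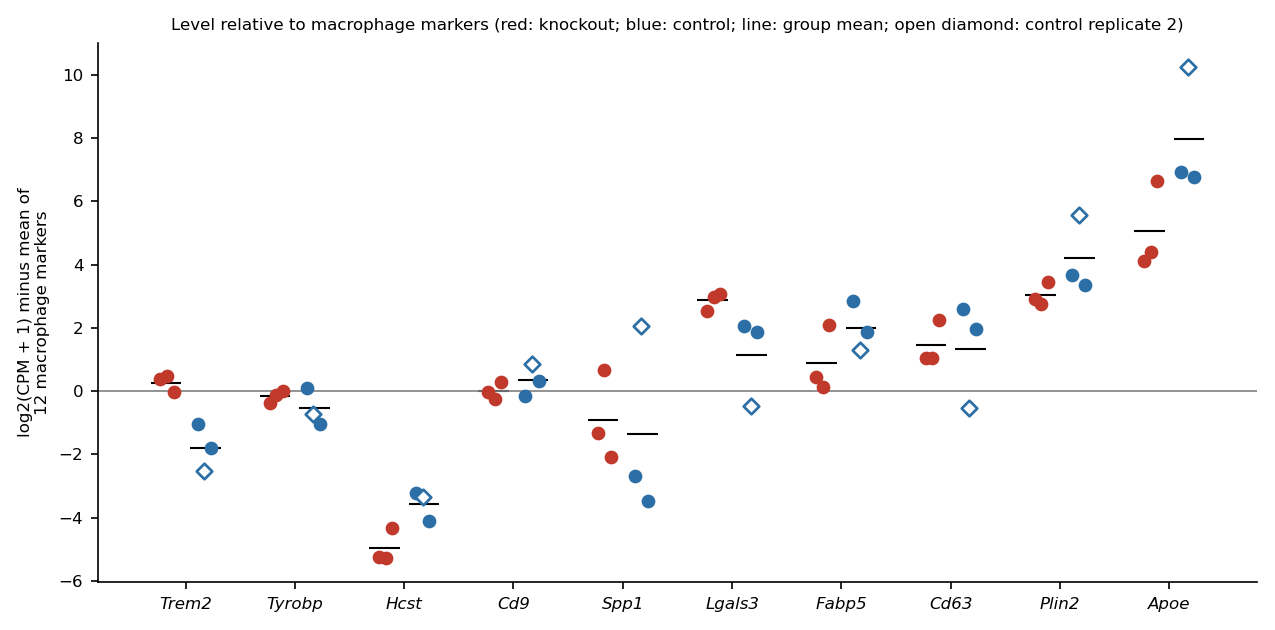
Log2(CPM + 1) of each gene minus the mean of 12 macrophage markers in the same library, for knockouts (red) and controls (blue), with group means as lines and control replicate 2 as an open diamond. All 3 knockouts lie above all controls for Trem2 and Lgals3, and below them for Hcst and Apoe. A gene at a constant level in all 6 libraries would also lie below, since the marker mean does not overlap between groups.

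Markers of hepatocytes were set beside the genes of the set. Pearson's r of log2(CPM + 1) with the hepatocyte mean over the 6 libraries ran from −0.92 for Fabp5 to 0.79 for Apoe. Without control replicate 2 it ran from −0.81 for Fabp5 to 0.16 for Apoe. The hepatocyte means were 1.04, 5.81 and 2.73 log2(CPM + 1) in the knockouts, against 1.33, 13.01 and 8.44 in the controls, with 0 to 5 of the 16 genes at 0 counts per library. Control replicate 2, the highest of these, had the highest Apoe of the 6 libraries and the lowest Trem2, Tyrobp, Hcst, Lgals3, Fabp5 and Cd63. Control replicate 3, the next highest, had the lowest Spp1 and Plin2, and its Apoe lay within the range of the knockouts. The part of liver transcripts in the values of these genes was not tested beyond leaving out that library. Of 6 Kupffer cell genes, markers of liver macrophages, Clec4f had 122 CPM in control replicate 2, 7.04 in control replicate 3 and at most 1.33 in the other libraries. The Kupffer cell mean was 4.55 in control replicate 2 and 1.25 to 2.51 elsewhere.

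**Figure D4:**
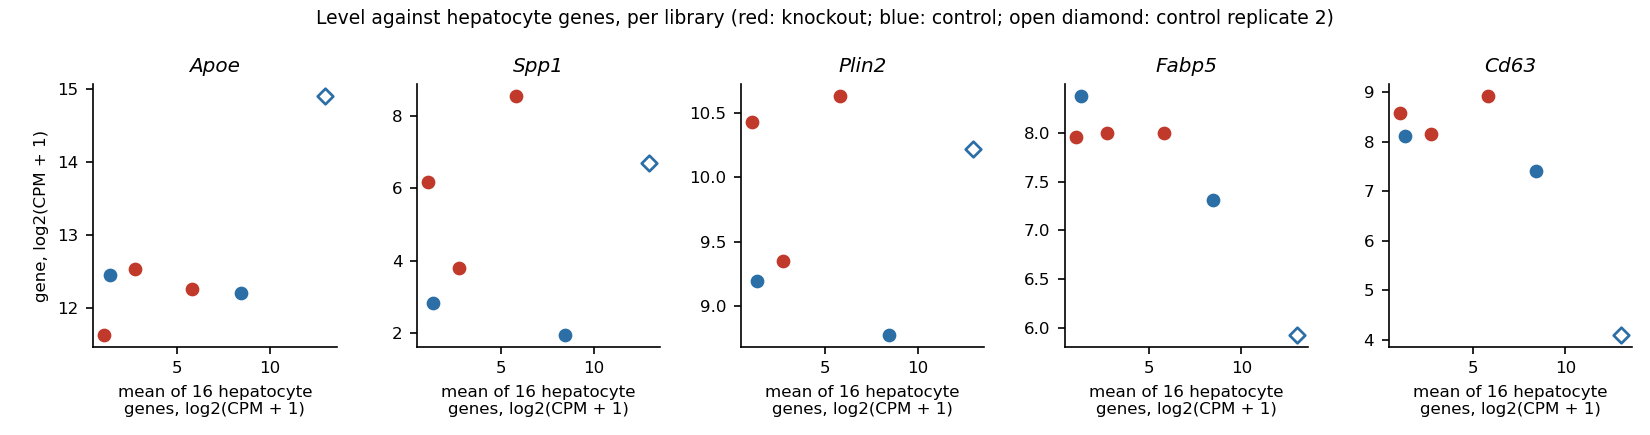
Log2(CPM + 1) of Apoe, Spp1, Plin2, Fabp5 and Cd63 (vertical axes) against the mean of 16 hepatocyte genes (horizontal axes) in the 3 knockout (red) and 3 control (blue) libraries. Control replicate 2, the open diamond at 13.01, has the highest Apoe and the lowest Fabp5 and Cd63.

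Genes whose pattern over the 6 libraries was most like that of Trem2 were sought among 9620 other genes with a mean of at least 10 CPM, by Pearson's r of log2(CPM + 1). The 6 nearest outside the set were Arhgap9 (r 0.996), Leprotl1 (0.996), Capg (0.996), Cyba (0.994), Cybc1 (0.993) and Pold1 (0.992). Arhgap9 is a GTPase-activating protein of blood cells, Capg an actin-capping protein of macrophages, and Cyba and Cybc1 serve the phagocyte NADPH oxidase. Arhgap9 had 43.6, 73.2 and 18.7 CPM in the knockouts, against 10.2, 2.59 and 6.12 in the controls, a narrower range than that of Trem2. Leprotl1 had 48.6 to 65.8 CPM in the knockouts, against 33.5 to 43.1 in the controls, so a high r does not mean a large difference. Within the set, r with Trem2 was 0.984 for Tyrobp, 0.967 for Lgals3, 0.925 for Cd9, 0.833 for Cd63, 0.696 for Fabp5, 0.515 for Plin2, 0.471 for Spp1 and −0.729 for Apoe. Over the 5 libraries without control replicate 2, these were 0.975 for Tyrobp, 0.990 for Lgals3, 0.956 for Cd9, 0.940 for Cd63, 0.311 for Fabp5, 0.983 for Plin2, 0.961 for Spp1 and −0.469 for Apoe. Plin2 and Spp1 were thus near Trem2 in pattern only without that library. These values describe few libraries that share their normalization, one of which stands apart, and the r of Trem2 with the mean of the macrophage markers was 0.976.

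Other receptor genes linked to DAP12 or DAP10, not all of which signal mainly through them, were measured as well. Of 13 such genes, 11 were tested, 9 had log2 fold changes above 0 and 0 passed by edgeR, with a median of 1.497 against −0.03 for all genes. Itgb2, the integrin chain shared by leukocytes, had 227, 369 and 54.8 CPM in the knockouts, against 19.9, 11.5 and 26.4 in the controls. Its log2 fold change was 3.49 ± 0.77 (SE, n = 3; edgeR adjusted p 0.560). Csf1r, the receptor for the macrophage growth factor CSF1, had 302, 427 and 107 CPM in the knockouts, against 90.6, 46.7 and 100.2 in the controls (1.82 ± 0.61). Csf1r is also among the macrophage markers. Cd300ld (2.27) and Cd200r4 (3.05), activating receptors of myeloid cells, also had all 3 knockouts above all controls. For Cd300ld the lowest knockout had 13.8 CPM and the highest control 13.7. Of the 11 genes tested, 5 had this order, against 9.54% of all genes. DESeq2 called Itgb2 and Cd300ld with all 6 libraries, and Itgb2 and Cd200r4 without control replicate 2. That is 2 of the list as higher each time, against 1.77% and 2.12% of all genes. Trem1, the inflammatory relative of Trem2, and Trem3 were too low to test, with at most 1.98 CPM in any library.

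Of 16 genes for signalling below the adaptors, 14 had log2 fold changes above 0 and 0 passed by edgeR, with a median of 1.86. Syk, the kinase that docks on DAP12 and that was named here for that role after its values were seen, had 114, 179 and 30.0 CPM in the knockouts, against 18.4, 4.29 and 26.2 in the controls (2.72 ± 0.88). Lat2, a scaffold of myeloid cells, had 32.7, 50.2 and 8.96 CPM in the knockouts, against 1.99, 0.447 and 2.71 in the controls. The log2 fold change of Lat2 was 4.12 ± 0.90, beside 2.07 for the phospholipase gene Plcg2 and 2.03 for the exchange factor gene Vav1. DESeq2 called 3 of the 16 as higher with all 6 libraries, against 1.77% of all genes, and 4 without control replicate 2, against 2.12%. They included Lat2 and Plcg2 with all 6 libraries, and Btk, Lat2 and Syk without control replicate 2.

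A list of genes that restrain the pathway or shed the receptor, to which genes of the Ms4a family were added, also tended above 0. That held in 8 of 10 with a median of 1.38, and 0 passed by edgeR. Inpp5d, which encodes the phosphatase SHIP1 that opposes DAP12 signalling, had 52.4, 65.3 and 17.5 CPM in the knockouts, against 16.3, 3.04 and 20.8 in the controls (1.75 ± 0.79). Dok3, an inhibitory adaptor, had a log2 fold change of 1.76. Adam17, a sheddase that cuts TREM2 from the surface, had 75.6, 83.7 and 31.2 CPM in the knockouts, against 21.2, 24.3 and 32.3 in the controls (1.29 ± 0.44). Ms4a7, a tetraspan gene of macrophages and one of the Ms4a genes added to the list, stood at 3.42. It was the 1 gene of the 10 that DESeq2 called as higher with all 6 libraries, against 1.77% of all genes. Without control replicate 2 DESeq2 called 2 of the 10, against 2.12%.

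Among 24 other genes of lipid-associated macrophages, 22 had log2 fold changes above 0, against 48.0% of all genes, with a median of 1.29. In 14 of 24 each knockout was above each control, against 9.54% of all genes. The 12 macrophage markers, with Cd68 in both lists, showed the same. All 12 were above 0, with a median of 2.07, 7 had each knockout above each control and DESeq2 called 5 as higher. EdgeR called 0 of them. DESeq2 called 10 of 24 as higher, against 1.77% of genes, and the same 10 without control replicate 2, against 2.12%. Atp6v0d2 (5.54), a proton pump subunit, Itgax (3.58), the CD11c integrin chain, Capg (3.29) and the protease gene Ctss (2.92) had the smallest p. Among genes of this list that adipocytes express strongly, Fabp4 stood at −0.45, Cd36 at 0.13 and Lpl at 1.07, each with overlapping groups, and these were named after their values were seen. Without control replicate 2 they stood at −1.03, −0.42 and 0.54.

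Of 20 genes of lipid storage and efflux, 19 were tested, 11 had log2 fold changes above 0 and 0 passed by edgeR, with a median of 0.27 that was −0.19 without control replicate 2. Soat1, the enzyme that makes cholesterol esters in foam cells, had 102, 166 and 31.2 CPM in the knockouts, against 13.5, 7.51 and 15.8 in the controls (3.02 ± 0.67 SE, DESeq2 adjusted p 0.00383). Msr1, a scavenger receptor for modified lipoproteins, stood at 2.04. The apolipoprotein gene Apoc1 (−4.64) and the lipid droplet gene Plin5 (−2.01) had their highest values, 5464 and 132 CPM, in control replicate 2 and stood at −1.26 and −0.32 without it.

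**Figure D5:**
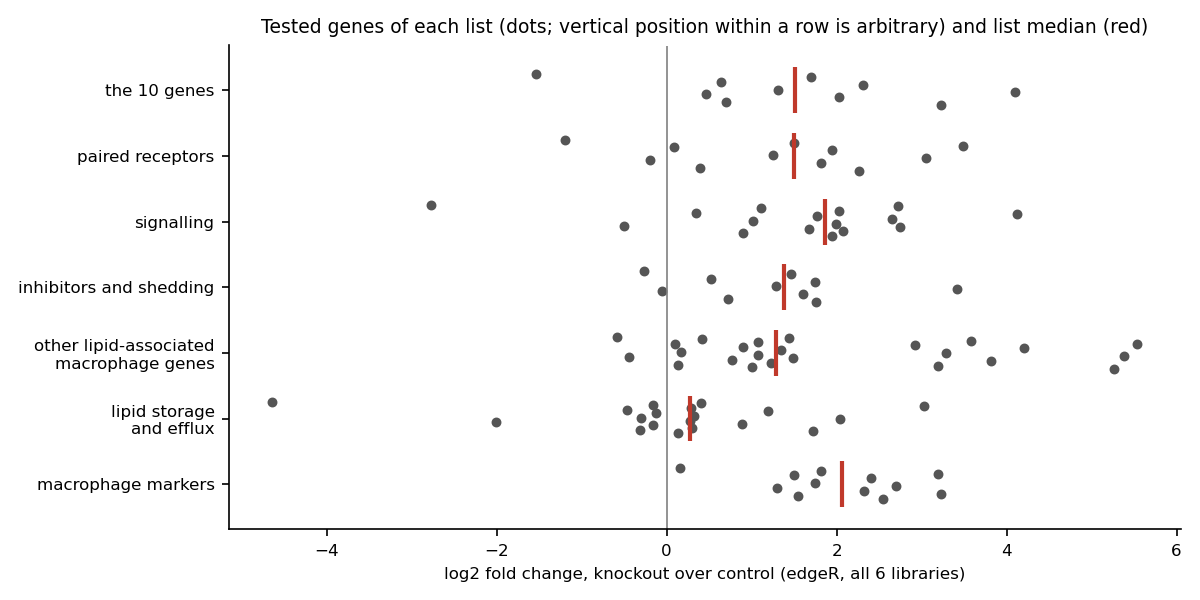
EdgeR log2 fold changes, knockout over control with all 6 libraries, of the tested genes (dots) in each list, with list medians in red. Medians lie between 1.29 and 2.07 except for lipid storage and efflux at 0.27.

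Lists for other cell types that could carry these genes were compared in the same way, as means of log2(CPM + 1). The B cell mean was 0.76 to 2.67 in the knockouts, against 0.33 to 0.71 in the controls, and the T and NK cell mean 1.34 to 1.68 in the knockouts, against 0.89 to 1.00 in the controls. Fibroblast means were 7.60, 8.43 and 6.90 in the knockouts, against 5.36, 3.74 and 7.06 in the controls, and knockout replicates 1 and 2 were thus high here too. Neutrophil means were 0.95 to 1.51 in the knockouts, against 1.298 to 4.07 in the controls, and monocyte means 2.905 to 3.67 and 2.48 to 3.66. Dendritic cell means were 2.05 to 2.22 and 1.23 to 2.06, mast cell means 1.70 to 2.68 and 0.25 to 1.75, and endothelial means 6.42 to 6.74 and 4.34 to 6.96. Mesothelial means were 0.37 to 2.85 and 1.38 to 3.07, and adipocyte means 9.50 to 10.89 and 6.26 to 10.60. Their part in the values of the 10 genes was not tested.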

How the data were processed

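RNA was sequenced from epididymal fat in 6 libraries. Per the labels' protocols, mRNA was purified, fragmented and made into amplified cDNA libraries. Per the submitters' processing notes, the tools were fastp (no version given), featureCounts 1.5.0-p3, StringTie 1.3.3b and HISAT2 2.0.5, on mm10. The sources used here give no strand setting or annotation release. The authors deposited raw counts per gene, used for all tests, and FPKM values, used within a library and for alternatives. Symbols were matched for 54409 of 54532 identifiers. Replicate numbers follow accession order. Replicates differed beyond counting noise (chi-square per degree of freedom 56.8 to 1112 between libraries of a group).

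The test of each gene was that of edgeR 4.0.16 under R 4.3.3 (filterByExpr, TMM, robust quasi-likelihood, Benjamini-Hochberg at 0.05) on all 6 libraries. The SE of a log2 fold change was obtained by dividing it by the square root of F. DESeq2 1.42.0, limma 3.58.1 (voom and trend), other scalings, filters, FPKM with pseudocounts of 1 and 0.1, a term for title numbers starting with 90 and each library left out served as alternatives. On simulated counts, edgeR had little power with all 6 libraries and more without control replicate 2, and DESeq2 recovered more changed genes but called too many unchanged ones. Those counts held no library that stands apart. CPM values are TMM-scaled, and log2 levels use a pseudocount of 1. Coordinates are from GENCODE vM21 and promoters from RefSeq on GRCm38.p6. A search of protein motifs was not run, as no protein sequences were used here.

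The genes and the lists were chosen with earlier results of these data known. Genes named beside the set are the 4 of smallest p in each pathway list, the 6 nearest to Trem2, and single markers on which a result turns. Syk, Btk, Trem1, Trem3, Fabp4, Cd36 and Lpl were named after their values were seen. One gene that this rule names is not reported here.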

Additional observations from a re-analysis of the deposited data

How the results depend on the processing

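EdgeR under every scaling, filter and library setting run, limma-voom, and limma on FPKM called 0 genes. DESeq2 called 525 genes (3.37%), 4 of the 10 and 17 pathway genes outside the set, of 80 that passed the filter. Of the 17, 10 were in the list of other lipid-associated macrophage genes. Without control replicate 2, a setting chosen after the data were seen, it called 452 genes (2.81%), 4 of the 10 and 21 pathway genes. With 1 library left out the counts of genes and of the 10 genes called by edgeR ranged from 0 to 0. No paired analysis was run because the labels do not link a knockout library to a control library. Of the log2 fold changes of the 10 genes, Hcst (−0.11) and Fabp5 (−0.38) changed sign, both without controls 2 and 3. With 1 library left out, that of Trem2 ranged from 3.63 to 4.80, Lgals3 2.70 to 3.71, Tyrobp 1.86 to 3.01, Cd9 1.47 to 2.04, Cd63 0.80 to 2.05, Plin2 0.44 to 1.25, Spp1 0.17 to 5.10, Hcst 0.34 to 1.28, Fabp5 0.05 to 1.21 and Apoe −1.94 to −0.14. Scaling by total counts moved the median of all genes to 0.34, and 9 of the 10 genes were above 0 there as with TMM. Each of the 10 log2 fold changes was higher there than with TMM. Apoe stood at −0.77 in place of −1.54, Plin2 at 1.32 in place of 0.70 and Spp1 at 3.08 in place of 2.03. The values of control replicate 2 for these genes thus depend on its TMM factor. Relative to macrophage markers, the difference of Tyrobp changed sign against Ptprc (−0.0065), that of Spp1 without knockout replicate 2 (−0.35), control replicate 1 (−0.20) or control replicate 3 (−0.60), and that of Cd63 against Adgre1 and Csf1r (−0.25), against Ptprc (−0.28), and without knockout replicate 3 (−0.28) or control replicate 2 (−0.82). With 1 library left out these ranged from −0.60 to 2.16 for Spp1 and from −0.82 to 0.74 for Cd63. The cause was not tested. Hcst had 16 to 143 counts, which limits its precision.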
